A study of Mus musculus with 9 samples.

Results

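Butyrate and pentanoate are short straight-chain fatty acids, and pentanoate carries a longer chain by a single carbon. Butyrate is known as an inhibitor of class I histone deacetylases, enzymes that take acetyl groups off histones and other proteins, and genes that are off in a cell type are often transcribed at a low level when such enzymes are blocked. Myoblasts are muscle precursors in which many genes of neurons, secretory cells and epithelia are kept near silent. The genes described here were near silent in control cells of a mouse myoblast line and were present, at a low level, after butyrate. They numbered 92 of the 22046 protein-coding genes in a table of 54697 lines.

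The data were RNA-seq counts of C2C12 cells, an established wild-type mouse line of myoblasts. Cells received pentanoate at 750 µM for 48 h, butyrate at 750 µM for 48 h, or stood as controls of the same day 2, and each group had 3 libraries. The treatment of the controls, vehicle or none, was not stated in the labels. By its title the study asks how the acids act on muscle formation. Libraries held 18041090 to 19305981 counts with pentanoate, 16295320 to 16798613 with butyrate and 15829262 to 18102783 in control, so that 10 counts equal about 0.577 CPM. Control 3 stood apart in its mitochondrially encoded transcripts, with 3.95% of its counts against 1.79% to 2.32% in the other 8 libraries. Of 9 markers of the muscle lineage, all measured in every group, edgeR called Myod1, Myog, Chrna1 and Musk lower and Myf5 higher with butyrate than in control at an adjusted p under 0.05. Of all genes tested, 4.95% were called lower and 6.43% higher in that comparison. Myod1 and Musk were also called higher with pentanoate than with butyrate, beside 1.81% of all genes tested (6 markers called with the replicate number as a block and 4 without control 3). Myod1, a master factor of the lineage, averaged 80.2 CPM with pentanoate, 45.9 CPM with butyrate and 83.1 CPM in control, and Myog, a factor of differentiating muscle, averaged 3.13 CPM with pentanoate, 0.582 CPM with butyrate and 3.88 CPM in control. The summed level of the 9, most of it from Des, was 1499 to 1918 CPM with pentanoate, 1275 to 1653 CPM with butyrate and 1191 to 1907 CPM in control. The part of these changes in the levels of the set was not tested.

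A gene entered the set when it was annotated as protein-coding, its mean over the control libraries was under 0.4 CPM and its mean over the butyrate libraries was at least 1 CPM. CPM (counts-per-million) is the count scaled to the column total. Mapt and members of large families handled by name (solute carriers, voltage-gated channel genes, protocadherins and cadherins, semaphorins, ephrins and their receptors, Hox, Wnt, Zfp, kinesin, collagen and histone genes) were left out, which removed 14 of 106 genes. Butyrate and control levels therefore chose the genes, and those levels are given as a description with no test. Pentanoate levels were not used in the choice, but each comparison with pentanoate shares either the low control libraries or the high butyrate libraries with it. In such bulk samples, fewer cells that express a gene and less RNA per cell cannot be told apart.

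Just inside the control threshold lay Chrm4 (mean 0.3998 CPM), Fndc5 (0.3979 CPM) and Trp53i11 (0.3978 CPM), and just outside it lay Cox7a1 (0.4021 CPM), Lman1l (0.4023 CPM) and Coro2a (0.4067 CPM). At the butyrate threshold, 1810010H24Rik (1.004 CPM), Plek2 (1.006 CPM) and Msx3 (1.008 CPM) were inside, and Aqp11 (0.990 CPM), Cd74 (0.989 CPM) and Gpr179 (0.988 CPM) were outside. These differences are far smaller than the spread between libraries, and the borders of the set are a convention. A total of 56 genes reached 1 CPM in all 3 butyrate libraries, and 51 met both thresholds whichever library was left out.

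The set was small against the number of silent genes. Of 10103 protein-coding genes under 0.4 CPM in control, 106 (1.05%) reached 1 CPM with butyrate, names left out included, and 23 (0.228%) reached it with pentanoate. In the other direction, 2 protein-coding genes were under 0.4 CPM with pentanoate and at 1 CPM or more in control, and 10 were so with butyrate.

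Over the 92 genes, the median of the mean levels was 0.616 CPM with pentanoate (range 0.0738 to 1.64), 1.53 CPM with butyrate (1.00 to 4.72) and 0.270 CPM in control (0 to 0.3998). Summed over the genes, the level was 57.0, 64.4 and 60.8 CPM in pentanoate libraries 1 to 3, 140, 177 and 182 CPM in butyrate libraries 1 to 3, and 23.5, 21.8 and 22 CPM in control libraries 1 to 3. The 3 groups did not overlap in this sum, and butyrate 1 was the lowest of its group. Counts behind the control levels were few: the median gene had 14 counts over the 3 control libraries together, and the highest had 21. Every library lacked counts for some gene except butyrate 1 and butyrate 3, and control 1, 2 and 3 had 0 counts for 8, 8 and 12 of the genes.

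**Figure D1:**
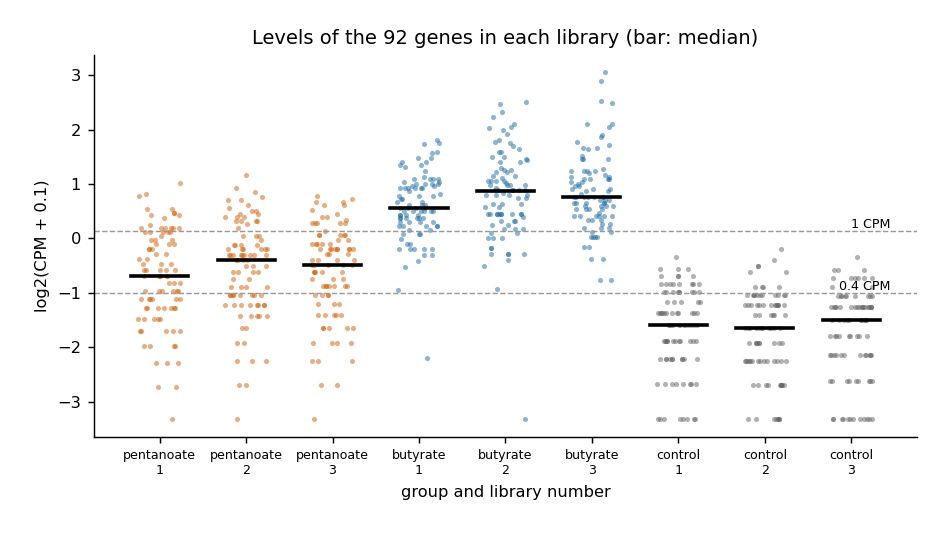
Level of each of the 92 genes in each library, as log2(CPM + 0.1), with dashed lines at 1 and 0.4 CPM and a bar at each library's median. Pentanoate libraries, with medians of 0.518 to 0.660 CPM, lie between the butyrate libraries (1.37 to 1.72 CPM) and the control libraries (0.221 to 0.253 CPM), and the butyrate and control positions follow from the choice of the genes.

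With pentanoate, 19 of the 92 genes were at 1 CPM or more, 47 lay from 0.4 to under 1 CPM and 26 stayed under 0.4 CPM. The mean with pentanoate was above the control mean for 89 genes, the exceptions being Gm14434, Fndc7 and Cep126. It was above the butyrate mean for 1 gene, Gm13889. The genes were chosen for low control and high butyrate means, which favours this order. The same counts over other genes were not made. Expressed per gene as a percentage of the butyrate level, the pentanoate level had a median of 39.9%, quartiles of 22.1% and 52.0%, and a range from 2.65% to 115%. Leaving out any 1 pentanoate or butyrate library gave medians from 37.7% to 40.1%.

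**Figure D2:**
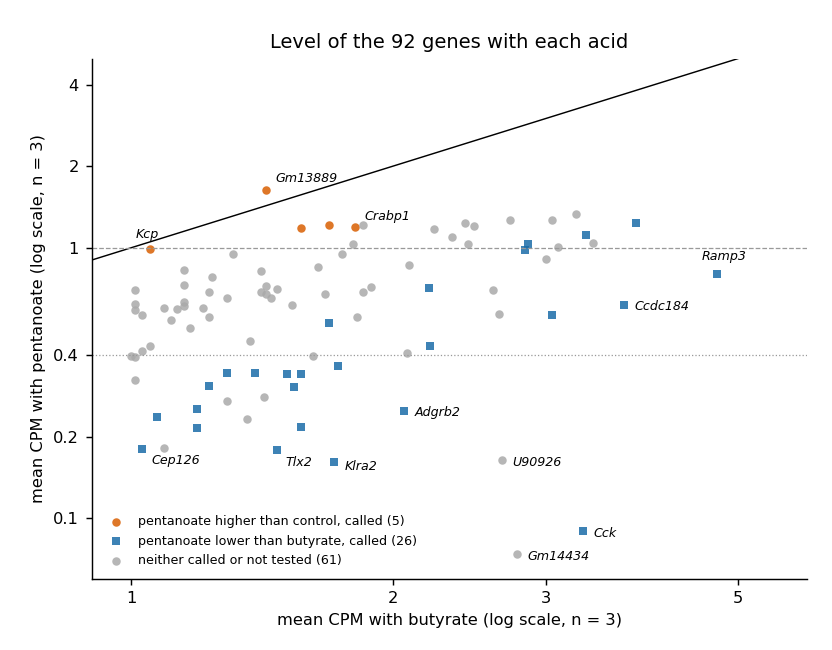
Mean CPM with pentanoate (vertical, log scale) against mean CPM with butyrate (horizontal, log scale) for the 92 genes, n = 3 libraries each, with equality drawn as a solid line and pentanoate levels of 1 and 0.4 CPM as dashed and dotted lines. All genes except Gm13889 lie below the line of equality, Kcp lies next to it, and Cck, Gm14434 and U90926 lie farthest below it.

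Libraries of the groups often did not overlap. All 3 pentanoate libraries were above all 3 control libraries for 53 of the 92 genes, as for 10.7% of all 14066 genes tested. All 3 pentanoate libraries were below all 3 butyrate libraries for 69 genes, as for 16.5% of the genes tested in that direction. The choice of genes with low control and high butyrate means favours both counts. They describe the set, and no excess over all genes is read from them. For butyrate above control, which the choice of the genes set, the count was 89 (16.4% of the genes tested), and Gm14434, Mcpt8 and Pla2g2e were the exceptions.

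A test across all genes was made with edgeR's quasi-likelihood method, and p-values were adjusted over the 14066 genes tested. It covered 90 of the 92 genes, and only 24 of them passed 10 counts in at least 3 of the 6 pentanoate and control libraries. The others entered the test through their butyrate libraries, so the counts of calls describe the set and are no support for a difference. The same holds for the adjusted p-values of single genes given below. Fits with libraries left out kept the same choice of genes. Against control, 5 genes were called higher with pentanoate at an adjusted p under 0.05 (Crabp1, Kcp, Scube3, Syt7 and Gm13889), where 0.782% of all genes tested were called higher. At an unadjusted p under 0.05, 52 were higher. The share of all genes at that unadjusted limit was not counted in either comparison with pentanoate. Against butyrate, 26 genes were called lower with pentanoate, where 1.61% of all genes tested were called lower, and 70 were lower at an unadjusted p under 0.05. For butyrate against control, which the choice used, 82 genes were called higher, beside 6.43% of all genes tested, and nothing is read from that count. Median log2 changes were 1.41 for pentanoate against control (−0.01 over all genes tested) and −1.29 for pentanoate against butyrate (0.00 over all genes tested).

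These numbers of calls moved with the libraries and with the model. With the replicate number as a block, 18 genes were higher with pentanoate than in control (3.01% of all genes) and 47 were lower than with butyrate (4.42% of all genes). No call was lost with it. The 13 calls it added against control were those of 2210011C24Rik, Atp1b2, Ccdc184, F5, Fndc5, Hcn2, Igf2bp1, Mpp3, Msi1, Plek2, Pstpip1, Ramp3 and Sox13 (adjusted p from 0.0193 to 0.0493 with the block and from 0.0694 to 0.215 without it, edgeR). The 21 it added against butyrate were those of Acap1, Atp1b2, C3, Cyp27a1, Dnah6, Erbb3, Lama3, Lmtk3, Lrp2, Mapkapk3, Mpp3, Msi1, Msx3, Myo7a, Plek, Plekha7, Pstpip1, Ret, Rpp25, Serpinb7 and Sox13 (adjusted p from 0.00345 to 0.0469 with the block and from 0.0519 to 0.183 without it, edgeR). The count against control was 4 without pentanoate 1, 2 without pentanoate 2, control 3 or any single butyrate library, 1 without control 1 or control 2, and 0 without pentanoate 3, where 49 genes had an unadjusted p under 0.05. The count against butyrate was 0 without pentanoate 1, where 59 genes had an unadjusted p under 0.05, 11 without pentanoate 2, 6 without pentanoate 3, 5 without butyrate 2, 3 without butyrate 3 and 45 without control 3. Calls against butyrate that were made without butyrate 2 were those of Adgrb2, Cck, Glrp1, Tlx2 and Vmn2r79, and without butyrate 3 those of Ccdc184, Cck and Tlx2. DESeq2's Wald test called 14 higher than control and 38 lower than butyrate. For DESeq2 and for single libraries left out, shares over all genes are not given, and no support is read from those counts. Since the labels name no separate cultures for the libraries within a group, a p-value reflects library spread alone, and that spread may be technical.

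Crabp1 (ENSMUSG00000032291, chromosome 9, 54764748 to 54773110, plus strand), which encodes a cytoplasmic carrier of retinoic acid, had the smallest p against control. It measured 1.04, 1.21 and 1.33 CPM with pentanoate, 1.85, 1.75 and 1.84 CPM with butyrate, and 0.231, 0.221 and 0.190 CPM in control. The 3 libraries of each group lay close together and no groups overlapped. The log2 change for pentanoate against control was 2.41 (SE 0.33, adjusted p = 0.00839, edgeR), and for pentanoate against butyrate it was −0.59 (95% interval −1.15 to −0.03, adjusted p = 0.255). Crabp1 kept its call against control in 13 alternatives and lost it in 2, without pentanoate 3 and in a fit of the pentanoate and control libraries alone.

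Kcp (ENSMUSG00000059022, chromosome 6, 29473162 to 29507952, minus strand), a secreted protein with cysteine-rich repeats that modulates bone morphogenetic protein signalling, reached the same range with both acids. Its levels were 1.04, 0.825 and 1.11 CPM with pentanoate, 0.952, 0.786 and 1.41 CPM with butyrate, and 0.115, 0.110 and 0.126 CPM in control. The pentanoate and butyrate libraries overlapped and both lay well above control. Against control the log2 change with pentanoate was 2.98 (SE 0.44, adjusted p = 0.0116, edgeR), and against butyrate it was −0.07 (95% interval −0.77 to 0.63, adjusted p = 0.945). The call against control was lost without pentanoate 3, control 1 or control 2.

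Scube3 (ENSMUSG00000038677, chromosome 17, 28142141 to 28174854, plus strand), which encodes a secreted and cell-surface glycoprotein, gave 1.04, 1.04 and 1.55 CPM with pentanoate, 1.37, 2.12 and 1.60 CPM with butyrate, and 0.231, 0.331 and 0.126 CPM in control. Syt7 (ENSMUSG00000024743, chromosome 19, 10389090 to 10453181, plus strand), a calcium sensor of exocytosis, gave 0.777, 1.15 and 1.61 CPM with pentanoate, 1.13, 1.99 and 1.60 CPM with butyrate, and 0.231, 0.0552 and 0.190 CPM in control. Gm13889 (ENSMUSG00000087006, chromosome 2, 93955810 to 93957201, minus strand), a gene of little known function, gave 1.66, 2.14 and 1.11 CPM with pentanoate, 1.37, 1.75 and 1.17 CPM with butyrate, and 0.346, 0.387 and 0.0632 CPM in control. In all 3 genes every treated library was above every control library, and pentanoate and butyrate libraries overlapped. Log2 changes for pentanoate against control were 2.32 for Scube3 (SE 0.42, adjusted p = 0.0337), 2.83 for Syt7 (SE 0.52, adjusted p = 0.0352) and 2.54 for Gm13889 (SE 0.48, adjusted p = 0.0384) by edgeR. Each of these calls was lost in 9 or 10 alternatives, among them the omission of pentanoate 2, pentanoate 3, any butyrate library or any control library. For pentanoate against butyrate, the 95% intervals of the log2 change were −1.19 to 0.24 for Scube3, −1.24 to 0.43 for Syt7 and −0.65 to 1.07 for Gm13889.

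**Figure D3:**
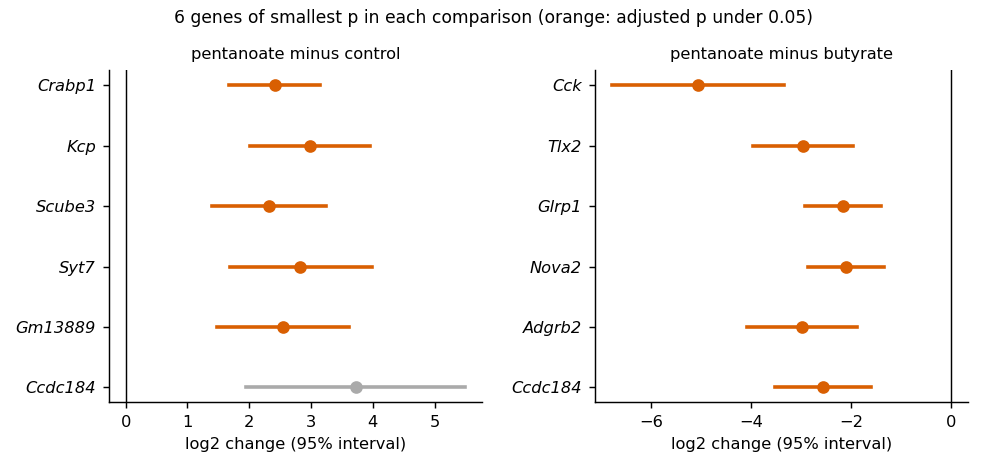
Log2 change with its 95% interval for the 6 genes of smallest p in pentanoate minus control (left) and pentanoate minus butyrate (right), with orange for an adjusted p under 0.05. All intervals shown exclude 0, those on the left lie above it and those on the right below it, and Ccdc184 on the left is the gene with an adjusted p over 0.05 (0.0694).

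Cck (ENSMUSG00000032532, chromosome 9, 121489824 to 121495694, minus strand) encodes the precursor of cholecystokinin, a peptide of gut endocrine cells and neurons. It measured 0.104, 0.110 and 0.0554 CPM with pentanoate, 0.893, 3.38 and 5.65 CPM with butyrate, and 0.115, 0.0552 and 0 CPM in control. The pentanoate libraries were within the range of the control libraries, and the butyrate libraries differed several-fold among themselves, with butyrate 1 lowest. The log2 change for pentanoate against butyrate was −5.07 (SE 0.78, adjusted p = 0.00823, edgeR), and it was called in every alternative tried except without pentanoate 1. Cck was chosen for its butyrate level, so this call is a description. Against control, 5 pentanoate counts stood beside 3 control counts, a ratio of 1.54 with a 95% counting interval from 0.299 to 9.90.

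Tlx2 (ENSMUSG00000068327, chromosome 6, 83068324 to 83070293, minus strand), a homeobox factor of enteric neurons, measured 0.207, 0.220 and 0.111 CPM with pentanoate, 1.79, 1.15 and 1.47 CPM with butyrate, and 0, 0.0552 and 0 CPM in control. All groups were apart, with the butyrate libraries several times above pentanoate. The log2 change for pentanoate against butyrate was −2.97 (SE 0.46, adjusted p = 0.00823, edgeR), a call lost without pentanoate 1. Pentanoate libraries held 10 counts and control libraries 1, a ratio of 9.23 with a 95% counting interval from 1.31 to 400.

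Glrp1, a gene of glutamine-rich protein with no well-known role, measured 0.311, 0.275 and 0.443 CPM with pentanoate, 1.25, 1.57 and 1.90 CPM with butyrate, and 0.289, 0.331 and 0.379 CPM in control. Nova2, an RNA-binding splicing factor of neurons, measured 0.311, 0.440 and 0.277 CPM with pentanoate, 1.49, 1.45 and 1.60 CPM with butyrate, and 0.231, 0.110 and 0.126 CPM in control. Adgrb2, an adhesion G protein-coupled receptor of the brain, measured 0.363, 0.165 and 0.222 CPM with pentanoate, 1.61, 1.27 and 3.31 CPM with butyrate, and 0.115, 0.276 and 0.126 CPM in control. Pentanoate and control libraries overlapped for Glrp1 and Adgrb2 and were apart for Nova2, and the butyrate libraries were above both groups in all 3 genes. Log2 changes for pentanoate against butyrate were −2.16 for Glrp1 (SE 0.34, adjusted p = 0.00971), −2.11 for Nova2 (SE 0.34, adjusted p = 0.0108) and −2.98 for Adgrb2 (SE 0.50, adjusted p = 0.0116) by edgeR. All 3 calls were lost without pentanoate 1 or without butyrate 3, those of Nova2 and Adgrb2 also without pentanoate 3, that of Nova2 without butyrate 2 and that of Adgrb2 without pentanoate 2. For Nova2, 31.7% of its exon bases are shared with a gene on the opposite strand, Gm26821, which had 0 CPM in all groups.

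Ccdc184 (ENSMUSG00000029875, chromosome 15, 98167158 to 98170134, plus strand), a coiled-coil protein of little known function, measured 0.518, 0.660 and 0.665 CPM with pentanoate, 2.56, 5.44 and 3.07 CPM with butyrate, and 0.115, 0 and 0 CPM in control. It was among the 6 genes of smallest p in both comparisons, at −2.56 for pentanoate against butyrate (SE 0.43, adjusted p = 0.0125, edgeR) and 3.73 for pentanoate against control (SE 0.80, adjusted p = 0.0694, edgeR). With the replicate block the second value was 3.75 with an adjusted p = 0.0350. Over the group, pentanoate libraries held 34 counts and control libraries 2, a ratio of 15.7 with a 95% counting interval from 4.02 to 135. The call against butyrate was lost without pentanoate 1, pentanoate 3 or butyrate 2.

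Genes of both kinds can be set beside their promoters: those that stayed low with pentanoate (Cck, Klra2 and Tbkbp1) and those that reached the butyrate range or came near it (Crabp1 and Kcp). Each sequence is the RefSeq window (the first listed for the gene) of GRCm38.p6, 250 bases before to 50 bases after the annotated start, written 5′ to 3′ on the gene's strand, with CpG dinucleotides in capitals. They are shown because CpG-rich and CpG-poor promoters are known to be kept silent in different ways. The windows are chr9:121495645-121495944 (minus strand) for Cck, chr6:131247313-131247612 (minus strand) for Klra2, chr11:97151457-97151756 (minus strand) for Tbkbp1, chr9:54764498-54764797 (plus strand) for Crabp1 and chr6:29507903-29508202 (minus strand) for Kcp.
Cck: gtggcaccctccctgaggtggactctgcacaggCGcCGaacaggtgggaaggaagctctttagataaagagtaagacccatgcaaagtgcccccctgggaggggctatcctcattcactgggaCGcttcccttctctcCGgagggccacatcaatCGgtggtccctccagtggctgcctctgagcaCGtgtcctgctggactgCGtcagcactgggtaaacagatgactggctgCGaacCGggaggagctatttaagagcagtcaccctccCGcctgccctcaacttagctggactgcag
Klra2: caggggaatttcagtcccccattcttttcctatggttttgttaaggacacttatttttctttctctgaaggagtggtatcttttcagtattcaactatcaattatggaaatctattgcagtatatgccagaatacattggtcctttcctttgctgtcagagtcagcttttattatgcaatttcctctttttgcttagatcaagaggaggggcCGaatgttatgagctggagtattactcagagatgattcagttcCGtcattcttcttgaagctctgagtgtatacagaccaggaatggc
Tbkbp1: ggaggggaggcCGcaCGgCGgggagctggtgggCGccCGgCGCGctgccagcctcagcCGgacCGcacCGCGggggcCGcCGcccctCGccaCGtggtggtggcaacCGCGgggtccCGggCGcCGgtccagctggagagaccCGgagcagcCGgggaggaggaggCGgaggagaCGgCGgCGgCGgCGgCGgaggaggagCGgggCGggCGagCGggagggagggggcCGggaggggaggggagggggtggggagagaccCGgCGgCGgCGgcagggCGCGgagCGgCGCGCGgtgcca
Crabp1: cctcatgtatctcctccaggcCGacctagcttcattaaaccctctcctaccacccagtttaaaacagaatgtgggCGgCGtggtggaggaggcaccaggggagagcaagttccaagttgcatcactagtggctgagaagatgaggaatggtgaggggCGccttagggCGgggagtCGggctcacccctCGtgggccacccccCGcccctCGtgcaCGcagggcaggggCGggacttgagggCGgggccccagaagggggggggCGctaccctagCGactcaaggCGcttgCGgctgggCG
Kcp: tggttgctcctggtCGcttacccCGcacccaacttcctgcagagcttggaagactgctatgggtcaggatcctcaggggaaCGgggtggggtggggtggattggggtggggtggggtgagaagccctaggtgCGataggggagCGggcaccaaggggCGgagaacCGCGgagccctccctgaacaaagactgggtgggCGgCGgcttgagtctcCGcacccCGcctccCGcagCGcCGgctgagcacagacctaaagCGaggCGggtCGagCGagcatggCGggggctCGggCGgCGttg

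The windows held 10 CpG in Cck, 2 in Klra2, 44 in Tbkbp1, 17 in Crabp1 and 23 in Kcp. Over the 16497 protein-coding genes with a window, the median was 14 and the quartiles were 4 and 25. Tbkbp1 has another RefSeq window, not shown, with 9 CpG, so its place in this range depends on the start chosen. A GC box (GGGCGG on either strand, overlapping matches counted) was found 2 times in Tbkbp1, 5 times in Crabp1 and 3 times in Kcp, and in 48.0% of all windows. The letters CCAAT were found in Klra2 and Kcp (38.8% of all windows) and the E-box CAGCTG in Tbkbp1 (15.2% of all windows), each on either strand. No window of the 5 held TATAAA (12.9% of all windows), TGACGTCA (2.43%) or the parts CAGCACC (7.15%) and GGACAGC (6.98%) of the site of the neuronal repressor REST. These are letter matches and say nothing of binding. Windows were at hand for 65 of the 92 genes (70.7%), too few to compare the promoters of the whole set.

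Transcript sequences, which cover all 92 genes, were compared instead. The longest transcript need not start at the RefSeq window, so these values do not stand for promoters. For Tbkbp1 its first 300 bases held 2 CpG, beside 44 in the window shown, and for Ccdc184 6, beside 19 in its window. In the first 300 bases of the longest annotated transcript, the 92 genes had a median of 15.5 CpG (quartiles 6 and 30). The other protein-coding genes from 0.1 to under 0.4 CPM in control, the closest in level, had 9 (5.00 and 18, 1029 genes), all others under 0.4 CPM, these included, had 6 (2.07 and 12, 9824 genes), and genes at 0.4 CPM or more had 21 (13.0 and 30, 11914 genes). GC content of that stretch had a median of 61.8% in the 92 genes, 56.0%, 51.7% and 61.3% in the same 3 comparison sets. Median transcript length was 3010 bases in the 92 genes and 2569, 2065 and 3184 bases in those sets. Longer transcripts give more reads at the same number of molecules, and the part of length in which genes passed 1 CPM was not tested. Within the set, the 19 genes at 1 CPM or more with pentanoate had a median of 20 CpG (12.5 and 30) and the 26 genes under 0.4 CPM with pentanoate had 6 (4 and 28.5), with wide overlap.

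**Figure D4:**
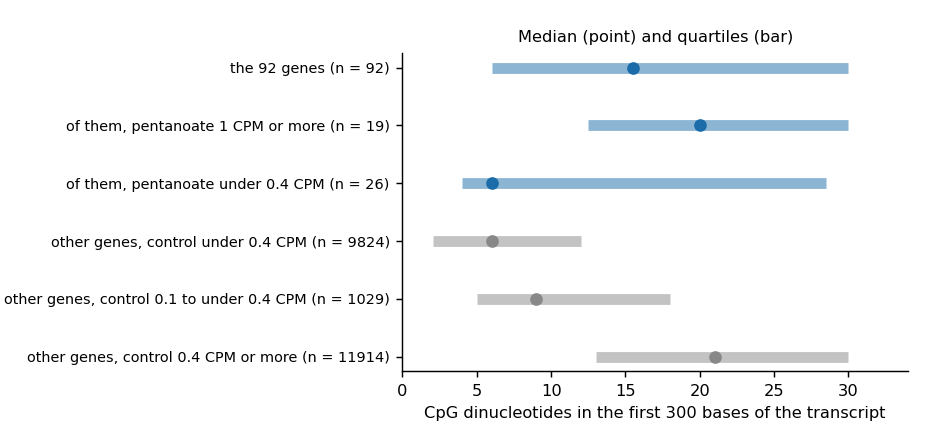
CpG dinucleotides in the first 300 bases of the transcript, median (point) and quartiles (bar), for the 92 genes and parts of them in blue and for other protein-coding genes by control level in grey. The 92 genes have a median of 15.5, between other near-silent genes (6 and 9) and genes at 0.4 CPM or more in control (21), and the quartile bars overlap.

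The genes lay on most chromosomes, and whether they cluster was not tested. Chromosome 11 held 15 of them, 16.3% beside 7.43% of all protein-coding genes, and chromosomes 16, X and Y held 0. The closest neighbours were Klk10 and Klk8, at 12.2 kb. Other members next to each other and under 1 Mb apart were Atp1b2 and Acap1 (276 kb), Acap1 and Asgr1 (159 kb), Spns2 and Atp2a3 (471 kb), Tubb4a and C3 (116 kb), Myrf and Syt7 (148 kb), Trp53i11 and Gm13889 (754 kb), Fndc5 and Adgrb2 (840 kb), and Camk2n1 and Pla2g2e (418 kb). Any exon base shared with another gene was found in 26 of the 92 genes, and at least 25% of the exon bases in Icam5 and Nova2. Use of strand in counting: not given in the sources used here.

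By function the genes fall into 10 groups, set from gene names after the genes were known, and none is tested as a group. Receptors and receptor accessory proteins form 1 of the 3 groups of 13 genes. They had a median of 0.781 CPM with pentanoate and 1.37 CPM with butyrate, and the pentanoate level was at a median of 32.9% of the butyrate level per gene. Ramp3, which pairs with the calcitonin receptor-like receptor to form a receptor for adrenomedullin, had the highest butyrate mean of the set and measured 0.518, 0.770 and 1.11 CPM with pentanoate, 2.92, 3.87 and 7.36 CPM with butyrate, and 0, 0.0552 and 0.253 CPM in control. Pentanoate libraries were above every control library and below every butyrate library, and butyrate 3 was the highest library. Its log2 change was −2.54 for pentanoate against butyrate (SE 0.49, adjusted p = 0.0204, edgeR), and 2.91 against control (SE 0.78, adjusted p = 0.143), where the replicate block gave an adjusted p = 0.0193. Per kilobase of transcript, Ramp3 was also highest in the set with butyrate, at 3.42 CPM per kb, beside 3.33 for U90926, 2.53 for Cck and 2.26 for Crabp1.

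Other genes of the same receptor system were on hand in a list of 11 genes, of which 8 were tested and 2 are members of the set. Of the 8, the call for butyrate against control was made for Ramp3, Calcb and Adm, all higher (5 with the replicate block), where Ramp3 was chosen for this difference. Of all genes tested, 6.43% were called higher in that comparison. Against butyrate, Ramp3 alone was called lower with pentanoate, beside 1.61% of all genes tested (3 list genes lower with the block or without control 3). Calcb, a calcitonin gene-related peptide, averaged 0.769 ± 0.331 CPM with pentanoate, 2.45 ± 0.749 CPM with butyrate and 0.530 ± 0.214 CPM in control (SD, n = 3 each). Adm, adrenomedullin itself, averaged 0.982 ± 0.433 CPM with pentanoate, 1.53 ± 0.207 CPM with butyrate and 0.429 ± 0.130 CPM in control (SD, n = 3 each). Calcrl, the receptor that Ramp proteins bind, averaged 1.32 ± 0.609 CPM with pentanoate, 3.23 ± 0.395 CPM with butyrate and 1.77 ± 0.648 CPM in control (SD, n = 3 each). Ramp2 averaged 2.10 ± 0.914 CPM with pentanoate, 1.67 ± 0.539 CPM with butyrate and 1.71 ± 0.5 CPM in control, and neither passed the test in any comparison without the block. The calcitonin receptor gene Calcr had 0 counts throughout. Ramp1, a partner of Calcrl in the receptor for calcitonin gene-related peptide, measured 1.29, 0.550 and 0.499 CPM with pentanoate, 1.79, 1.03 and 0.921 CPM with butyrate, and 0.520, 0.608 and 0.0632 CPM in control, with overlap between the acids and between pentanoate and control.

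Erbb3, a neuregulin receptor with little kinase activity of its own, measured 0.829, 1.32 and 0.887 CPM with pentanoate, 2.08, 4.90 and 2.33 CPM with butyrate, and 0.577, 0.276 and 0.316 CPM in control. Lrp2, which encodes the endocytic receptor megalin, measured 0.622, 1.59 and 0.499 CPM with pentanoate, 2.68, 4.17 and 2.15 CPM with butyrate, and 0.289, 0.442 and 0.126 CPM in control. Disp2, a relative of the protein that releases hedgehog ligands, measured 1.35, 1.15 and 1.11 CPM with pentanoate, 2.26, 2.90 and 2.27 CPM with butyrate, and 0.693, 0.387 and 0.0632 CPM in control. In these 3 genes each pentanoate library was above the highest control library, and each was below the lowest butyrate library. Klra2, a lectin-like receptor of the Klra family, measured 0.207, 0 and 0.277 CPM with pentanoate, 1.31, 2.12 and 1.72 CPM with butyrate, and 0, 0 and 0.0632 CPM in control. Pentanoate libraries held 9 counts and control libraries 1, a ratio of 8.30 with a 95% counting interval from 1.15 to 364, and Klra2 was called lower with pentanoate than with butyrate (−3.34, SE 0.61, adjusted p = 0.0172, edgeR).

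Klra2 was the 1 member of the set in a list of 35 lymphoid and natural killer receptors, which takes in Klra genes by name. Of the 35, 34 were under 0.4 CPM in control and 25 had 0 counts in every library. Only Cd28 and Klra2, which was chosen for its butyrate level, could be tested. Both were called higher with butyrate than in control, beside 6.43% of all genes tested. Cd28 averaged 0.901 ± 0.198 CPM with pentanoate, 1.87 ± 0.556 CPM with butyrate and 0.504 ± 0.215 CPM in control (SD, n = 3 each). The summed level of 10 blood markers was 2.49 to 3.08 CPM with pentanoate, 6.73 to 8.10 CPM with butyrate and 1.90 to 2.49 CPM in control. Of them Hba-a1 and Cd68 made up most, at 0.688 and 1.13 CPM with pentanoate, 3.63 and 2.17 CPM with butyrate, and 0.419 and 1.01 CPM in control. Of 3 tested, Hba-a1 alone was called higher with butyrate than in control, beside 6.43% of all genes tested. It alone was also called lower with pentanoate than with butyrate, beside 1.61% of all genes tested. Ptprc, the pan-leukocyte marker, was at 0.0530 CPM with pentanoate, 0.0198 CPM with butyrate and 0 CPM in control. The part of the blood markers in the Klra2 result was not tested.

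The remaining receptors were neurotransmitter, growth factor, hepatic and sensory receptors at 1.15 to 1.37 CPM with butyrate. Ret, the kinase receptor for ligands of the glial cell line-derived neurotrophic factor family, was at 0.452 CPM with pentanoate, 1.37 CPM with butyrate and 0.331 CPM in control on average. Adora2a, an adenosine receptor, averaged 0.950 CPM with pentanoate and 1.31 CPM with butyrate, Adrb1, the beta-1 adrenergic receptor, 0.686 CPM with pentanoate and 1.23 CPM with butyrate, and Chrm4, a muscarinic acetylcholine receptor, 0.825 CPM with pentanoate and 1.15 CPM with butyrate. Asgr1, a liver receptor for desialylated glycoproteins, averaged 0.726 CPM with pentanoate and 1.15 CPM with butyrate. Vmn2r79, a vomeronasal receptor, measured 0.259, 0.275 and 0.111 CPM with pentanoate, 1.25, 0.907 and 1.41 CPM with butyrate, and 0.0577, 0.166 and 0.126 CPM in control, and was called lower with pentanoate than with butyrate (adjusted p = 0.0164, edgeR). Of the 1501 olfactory, vomeronasal and bitter taste receptor genes in the table, 1497 were under 0.4 CPM in control and 1391 had 0 counts in all libraries. Their summed level was 7.97 to 16 CPM with pentanoate, 11.1 to 16.5 CPM with butyrate and 9.83 to 19.8 CPM in control, ranges that overlap. Of the 5 tested, Olfr456 and the chosen Vmn2r79 were called higher with butyrate than in control, beside 6.43% of all genes tested.

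**Figure D5:**
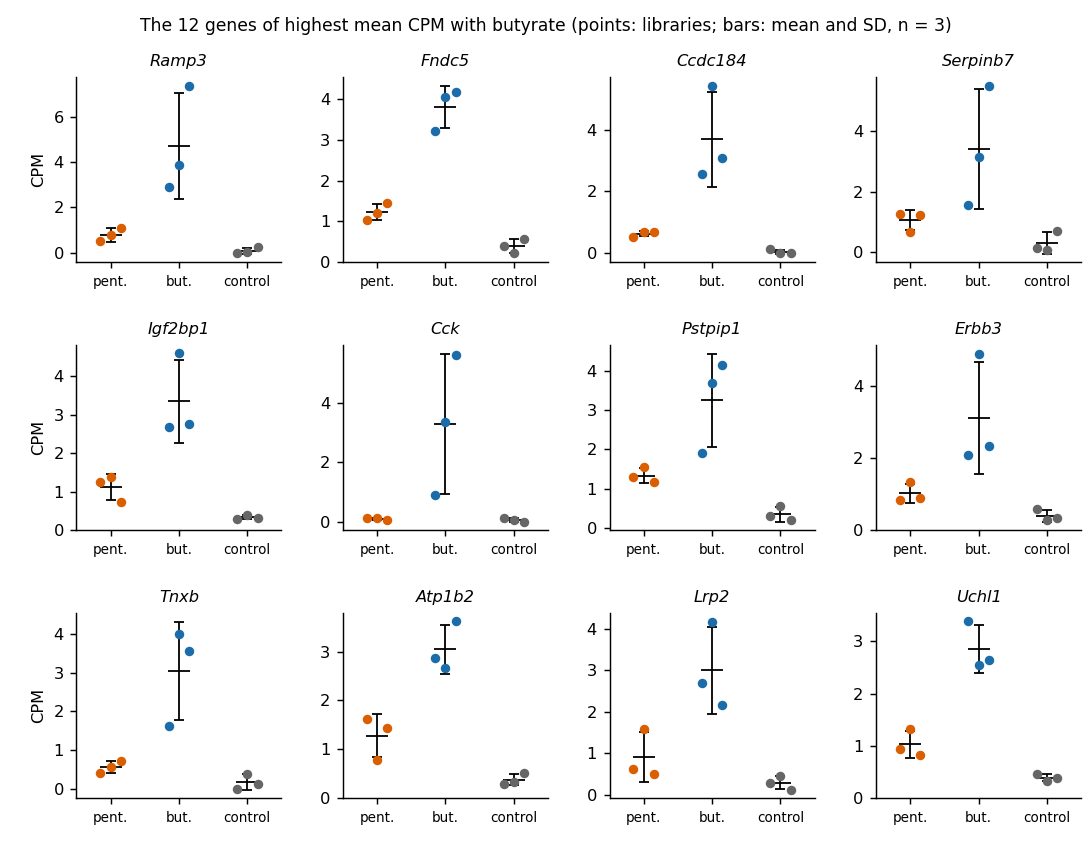
CPM in each library (points) with mean and SD (bars, n = 3) for the 12 genes of highest mean CPM with butyrate, which is how they were picked, in pentanoate, butyrate and control cells from left to right. Pentanoate points of Ramp3, Fndc5, Ccdc184, Igf2bp1, Pstpip1, Erbb3, Tnxb, Atp1b2, Lrp2 and Uchl1 lie above all control points, and those of Cck lie with control.

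Ligands and secreted regulators numbered 7. Their median pentanoate level was 0.434 CPM and the median butyrate level 1.23 CPM, and the pentanoate level ranged from 2.71% of the butyrate level in Cck to 94.3% in Kcp. Fndc5, the precursor of irisin, a peptide that muscle releases, measured 1.04, 1.21 and 1.44 CPM with pentanoate, 3.21, 4.05 and 4.17 CPM with butyrate, and 0.404, 0.221 and 0.569 CPM in control. The libraries of each group were close and the groups did not overlap, with a log2 change of −1.62 for pentanoate against butyrate that was called (adjusted p = 0.0152, edgeR), and 1.60 against control (adjusted p = 0.0782, where the block gave an adjusted p = 0.0350). Il15, a cytokine of natural killer and memory T cells that muscle also makes, measured 0.155, 0.440 and 0.333 CPM with pentanoate, 0.774, 1.57 and 1.35 CPM with butyrate, and 0.289, 0.166 and 0.190 CPM in control, and pentanoate overlapped control. Fndc7, a fibronectin type III domain protein, averaged 0.253 CPM with pentanoate, 1.19 CPM with butyrate and 0.281 CPM in control. Il15 and Fndc7 were called lower with pentanoate than with butyrate (adjusted p = 0.0424 and 0.0295, edgeR). Tnfsf11, the ligand RANKL that drives osteoclast formation, averaged 0.434 CPM with pentanoate, 1.05 CPM with butyrate and 0.103 CPM in control, and its pentanoate libraries overlapped neither other group.

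Cck was the 1 member in a list of 47 secreted peptides and granule proteins. Of these, 41 were under 0.4 CPM in control and 16 had 0 counts in every library, among them Gast, Sst, Npy, Vip, Pomc and Gal. Of the 8 tested, 4 were called higher with butyrate than in control, namely Cck, which was chosen for it, Calcb, Adm and Scg5. Of all genes tested, 6.43% were called higher. Scg5, a chaperone of prohormone convertase, averaged 0.508 ± 0.383 CPM with pentanoate, 0.663 ± 0.213 CPM with butyrate and 0.119 ± 0.0663 CPM in control (SD, n = 3 each). For pentanoate against butyrate Cck alone was called, on the lower side, beside 1.61% of all genes tested (2 list genes lower with the block or without control 3). Of the proteins that store and process such peptides, the carboxypeptidase Cpe averaged 250 CPM with pentanoate, 242 CPM with butyrate and 218 CPM in control. The granule proteins Chga and Chgb were at 0 CPM with pentanoate, 0.0205 and 0.0201 CPM with butyrate and 0 CPM in control.

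Genes of neuronal membranes, synapses and excitability numbered 11, with a median of 0.687 CPM with pentanoate and 1.64 CPM with butyrate. Mpp3, a membrane-associated scaffold protein, measured 0.777, 1.54 and 0.776 CPM with pentanoate, 2.02, 3.26 and 2.03 CPM with butyrate, and 0.289, 0.552 and 0.253 CPM in control. Cyfip2, a subunit of the complex that controls branched actin at synapses, measured 0.363, 0.715 and 0.222 CPM with pentanoate, 2.38, 2.30 and 1.96 CPM with butyrate, and 0.173, 0 and 0.316 CPM in control. Camk2n1, an inhibitor of calcium/calmodulin-dependent kinase II, measured 1.92, 0.770 and 0.942 CPM with pentanoate, 1.79, 1.99 and 1.78 CPM with butyrate, and 0.462, 0.110 and 0.316 CPM in control. Cyfip2 was called lower with pentanoate than with butyrate (−2.32, adjusted p = 0.0380, edgeR), while the acids overlapped for Camk2n1. Lmtk3, a membrane kinase, measured 0.622, 0.275 and 0.776 CPM with pentanoate, 1.19, 1.63 and 2.64 CPM with butyrate, and 0.173, 0.110 and 0 CPM in control, again with pentanoate between the other groups. At the lower end of the group stood Hcn2, a pacemaker channel subunit (0.652 CPM with pentanoate, 1.29 CPM with butyrate and 0.0990 CPM in control), and Flrt1, an adhesion protein (0.237 CPM with pentanoate, 1.07 CPM with butyrate and 0.137 CPM in control), the second called lower with pentanoate than with butyrate (adjusted p = 0.0380, edgeR). The others were Guca1a, which activates a guanylate cyclase of the retina, Icam5, an adhesion molecule of telencephalic dendrites, Efr3b, a plasma membrane anchor for a lipid kinase, and Ttyh1, with pentanoate levels of 1.03, 0.849, 0.687 and 0.346 CPM, and Ttyh1 was called lower than with butyrate (adjusted p = 0.0426, edgeR).

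Syt7 was the 1 member in a list of 42 genes of synaptic vesicles and their release, 25 of them under 0.4 CPM in control. Of 18 tested, 5 were called higher and 1 lower with butyrate than in control, beside 6.43% and 4.95% of all genes tested. Rab3b and Syt7 were called higher with pentanoate than in control, beside 0.782% of all genes tested (1 list gene without control 3). Snap25 and Rims1, core parts of the release machinery, had 0 counts throughout. Among 11 neuron markers the summed level was 74.6 to 85.3 CPM with pentanoate, 76.7 to 87.8 CPM with butyrate and 34.2 to 41.3 CPM in control, carried by Syn1, Stmn2 and Tubb3. Of the 4 neuron markers tested, these 3 were called higher with butyrate than in control, beside 6.43% of all genes tested. Stmn2 alone of the 4 was also called higher with pentanoate than in control (log2 change 1.65, adjusted p = 7.48e-05, edgeR), beside 0.782% of all genes tested. It alone was called higher with pentanoate than with butyrate as well (0.50, adjusted p = 0.0204, edgeR), beside 1.81% of all genes tested. The markers Rbfox3, Dcx, Elavl4 and Snap25 had 0 counts in every library. Among 8 glia markers the sum was 4.35 to 5.50 CPM with pentanoate, 5.56 to 6.57 CPM with butyrate and 3.26 to 4.50 CPM in control, carried by Mbp, with Sox10, Olig2 and Aqp4 at 0. The part of these markers in the levels of the neuronal genes was not tested.

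Transcription factors and RNA-binding proteins numbered 10, with a median of 0.596 CPM with pentanoate and 1.87 CPM with butyrate. Igf2bp1, a fetal mRNA-binding protein, measured 1.24, 1.37 and 0.721 CPM with pentanoate, 2.68, 4.59 and 2.76 CPM with butyrate, and 0.289, 0.387 and 0.316 CPM in control. Its pentanoate libraries stood between the other groups without overlap, with a log2 change of −1.57 against butyrate (adjusted p = 0.0292, edgeR) and of 1.71 against control (adjusted p = 0.105, edgeR, where the block gave an adjusted p = 0.0312). Msi1, a translational regulator of neural stem cells, measured 0.984, 0.825 and 1.5 CPM with pentanoate, 2.02, 1.99 and 3.01 CPM with butyrate, and 0.404, 0.331 and 0.316 CPM in control. Myrf, the membrane-bound factor that drives myelin genes in oligodendrocytes, measured 0.518, 1.70 and 1.27 CPM with pentanoate, 2.44, 2.30 and 1.96 CPM with butyrate, and 0.289, 0.387 and 0.253 CPM in control. Neither passed the test for pentanoate in either comparison without the block. With it, Msi1 was called in both (adjusted p = 0.0379 against control and 0.0278 against butyrate, edgeR) and Myrf in neither (adjusted p = 0.0636 and 0.104). Sox13 (0.686 CPM with pentanoate, 1.85 CPM with butyrate and 0.0552 CPM in control) and Msx3 (0.326 CPM with pentanoate, 1.01 CPM with butyrate and 0.0192 CPM in control) had almost no counts in control, with 3 and 1 over the group. Their pentanoate counts were 38 and 18, ratios of 11.7 (95% counting interval 3.71 to 59.2) and 16.6 (2.62 to 692). Rpp25, a subunit of ribonuclease P, averaged 0.714 CPM with pentanoate and 1.89 CPM with butyrate, and Casz1, a zinc finger factor, 0.506 CPM with pentanoate and 1.17 CPM with butyrate.

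Gm14434, a predicted gene, was in the set through 1 library, with 0, 0.0550 and 0.166 CPM with pentanoate, 0.119, 0 and 8.22 CPM with butyrate, and 0.289, 0.0552 and 0.442 CPM in control. Too few libraries passed the filter on low counts for a test, and pentanoate and control libraries overlapped. U90926, a gene of little known function, was not tested for the same reason, with 0.0518, 0.385 and 0.0554 CPM with pentanoate, 0.417, 5.56 and 2.03 CPM with butyrate, and 0, 0.110 and 0 CPM in control, with butyrate 2 highest and every butyrate library above every control library.

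Tlx2 was the 1 member in a list of 79 homeobox factors outside the Hox clusters, of which 54 were under 0.4 CPM in control and 32 had 0 counts in every library. Of 26 tested, 3 were called higher and 4 lower with butyrate than in control, beside 6.43% and 4.95% of all genes tested. Vax2, Lhx9 and the chosen Tlx2 were on the higher side, and 13 list genes were called with the block. Tlx2 was called lower and Dlx1 was among those called higher with pentanoate than with butyrate (11 list genes called with the block and 9 without control 3). Of all genes tested, 1.61% were called lower and 1.81% higher in that comparison. The median log2 change of the list was −0.06 for butyrate against control and 0.09 for pentanoate against control, beside −0.02 and −0.01 over all genes tested.

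Cytoskeletal, motor and cilium genes numbered 13, with medians of 0.651 CPM with pentanoate and 1.47 CPM with butyrate. Pstpip1, an adaptor that binds actin regulators in blood cells, measured 1.29, 1.54 and 1.16 CPM with pentanoate, 1.90, 3.69 and 4.17 CPM with butyrate, and 0.289, 0.552 and 0.190 CPM in control. Plek, a protein kinase C substrate of platelets and leukocytes, measured 0.155, 0.770 and 0.776 CPM with pentanoate, 1.19, 2.72 and 4.05 CPM with butyrate, and 0.289, 0.221 and 0.379 CPM in control. Myo7a, an unconventional myosin of inner ear hair cells, measured 0.881, 0.825 and 0.388 CPM with pentanoate, 3.27, 2.72 and 1.84 CPM with butyrate, and 0.404, 0 and 0.0632 CPM in control. Pstpip1 reached 1 CPM in all 3 pentanoate libraries, and Plek and Myo7a each had 1 pentanoate library below the highest control library. Plekha7, an adherens junction protein, measured 0.829, 0.934 and 0.831 CPM with pentanoate, 2.44, 2.60 and 1.23 CPM with butyrate, and 0.520, 0.331 and 0.253 CPM in control, with no overlap between the groups. Wwc1, an upstream regulator of the Hippo pathway, and Cep126, a centrosomal protein of cilia, were called lower with pentanoate than with butyrate (adjusted p = 0.0426 and 0.0249, edgeR), and Cep126 averaged 0.180 CPM with pentanoate, 1.03 CPM with butyrate and 0.295 CPM in control. The rest of the group were Mapk15, Dnah6, Afap1l1, Ripor3, Tubb4a, Nefm and Plek2, at 0.398 to 0.949 CPM with pentanoate and 1.01 to 1.75 CPM with butyrate.

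Genes of metabolism, lipids and transport also numbered 13, with medians of 0.598 CPM with pentanoate and 1.41 CPM with butyrate. Atp1b2, a beta subunit of the sodium pump, measured 1.61, 0.770 and 1.44 CPM with pentanoate, 2.86, 2.66 and 3.62 CPM with butyrate, and 0.289, 0.331 and 0.505 CPM in control. Ptges, a prostaglandin E synthase, measured 0.466, 0.715 and 0.942 CPM with pentanoate, 1.43, 2.54 and 2.64 CPM with butyrate, and 0.231, 0.276 and 0.505 CPM in control. Gldc, an enzyme of the glycine cleavage system, measured 0.104, 0.715 and 0.277 CPM with pentanoate, 1.43, 1.99 and 1.78 CPM with butyrate, and 0.173, 0.166 and 0.379 CPM in control. Pentanoate libraries were above control for Atp1b2 and overlapped control for Ptges and Gldc, and in all 3 genes they were below butyrate. Gsta2, a glutathione transferase, averaged 0.307 CPM with pentanoate and 1.54 CPM with butyrate and was called lower with pentanoate (adjusted p = 0.0241, edgeR), as were Ptges (adjusted p = 0.0466) and Gldc (adjusted p = 0.0438). Cyp27a1, a sterol hydroxylase of bile acid synthesis, averaged 0.232 CPM with pentanoate, 1.36 CPM with butyrate and 0.125 CPM in control. Spns2, an exporter of sphingosine-1-phosphate, averaged 0.819 CPM with pentanoate, 1.41 CPM with butyrate and 0.160 CPM in control. Amdhd1, an enzyme of histidine breakdown, averaged 0.676 CPM with pentanoate, 1.43 CPM with butyrate and 0.290 CPM in control. Fabp4, a fatty acid carrier of adipocytes, measured 0.466, 0.330 and 0.998 CPM with pentanoate, 0.595, 0.907 and 1.78 CPM with butyrate, and 0.173, 0.110 and 0.190 CPM in control. The other 4 adipocyte markers that were looked up (Adipoq, Plin1, Cfd and Lep) were at 0 to 0.0604 CPM in every group. Cygb, Atp2a3, Mfsd6 and Pla2g2e completed the group at 0.543 to 0.629 CPM with pentanoate.

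Proteases, protease inhibitors, coagulation, complement and defence genes numbered 10, with a median of 0.569 CPM with pentanoate and 1.29 CPM with butyrate. Serpinb7, an intracellular serine protease inhibitor of skin, measured 1.24, 0.660 and 1.22 CPM with pentanoate, 1.55, 3.14 and 5.52 CPM with butyrate, and 0.115, 0.0552 and 0.695 CPM in control. Butyrate 1 of Serpinb7 was close to the pentanoate libraries, and control 3 was above 1 pentanoate library. The neighbours Klk8, a serine protease known as neuropsin, and Klk10, its relative, were described together because of that position. Klk8 measured 0.777, 0.934 and 1.22 CPM with pentanoate, 2.56, 2.90 and 3.07 CPM with butyrate, and 0.462, 0.387 and 0.316 CPM in control. Klk10 measured 0.259, 0.660 and 0.665 CPM with pentanoate, 1.79, 1.75 and 1.53 CPM with butyrate, and 0.404, 0.442 and 0.190 CPM in control. Both were called lower with pentanoate than with butyrate (adjusted p = 0.0147 for Klk8 and 0.0448 for Klk10, edgeR), and pentanoate and control libraries were apart for Klk8 and overlapped for Klk10. Defb42, a defensin, measured 1.35, 0.385 and 0.443 CPM with pentanoate, 1.07, 1.63 and 1.60 CPM with butyrate, and 0.346, 0.221 and 0.316 CPM in control, with 1 pentanoate library far above the others. The complement component C3 averaged 0.182 CPM with pentanoate, 1.09 CPM with butyrate and 0.0561 CPM in control, and coagulation factors F5 and F7 averaged 0.610 and 0.396 CPM with pentanoate and 1.15 and 1.01 CPM with butyrate. Mcpt8, a serine protease of basophils, Prss22 and Naip5 were at 0.282, 0.417 and 0.618 CPM with pentanoate.

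Signalling and ubiquitin enzymes numbered 6. Uchl1, an abundant ubiquitin hydrolase of neurons, measured 0.932, 1.32 and 0.831 CPM with pentanoate, 3.39, 2.54 and 2.64 CPM with butyrate, and 0.462, 0.331 and 0.379 CPM in control. Acap1, an activator of the GTPase activity of Arf6, measured 0.622, 0.605 and 0 CPM with pentanoate, 1.79, 2.36 and 2.09 CPM with butyrate, and 0.231, 0.166 and 0.0632 CPM in control. Mapkapk3, a kinase downstream of p38, measured 1.04, 0.495 and 0.499 CPM with pentanoate, 1.90, 1.87 and 1.23 CPM with butyrate, and 0.346, 0.387 and 0.253 CPM in control. Uchl1 was called lower with pentanoate than with butyrate (adjusted p = 0.0204, edgeR), and Acap1 had 0 counts in pentanoate 3. Tbkbp1, an adaptor of the kinase TBK1, was the only gene of the 92 with 0 counts in all control libraries. It measured 0.155, 0.330 and 0.166 CPM with pentanoate, 1.25, 1.87 and 1.60 CPM with butyrate, and 0, 0 and 0 CPM in control. Its 12 pentanoate counts gave a ratio of 3.69 to control when 3 counts were taken for the whole control group as a floor. The exact 95% counting limit for the ratio ran from 2.56 upward, and the log2 change against butyrate was −2.81 (SE 0.44, adjusted p = 0.0138, edgeR). In the list of 17 measured genes of TBK1 and nucleic acid sensing, 15 were tested. Irf7 and the chosen Tbkbp1 were called higher with butyrate than in control, beside 6.43% of all genes tested. Tbk1 averaged 47.1 ± 1.21 CPM with pentanoate, 45.3 ± 2.93 CPM with butyrate and 46.4 ± 1.73 CPM in control (SD, n = 3 each). Otulinl and the phosphatase Inpp5j averaged 0.615 and 0.596 CPM with pentanoate and 1.53 and 1.13 CPM with butyrate.

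The extracellular matrix group held 2 genes. Tnxb, which encodes tenascin X, measured 0.414, 0.550 and 0.721 CPM with pentanoate, 1.61, 3.99 and 3.56 CPM with butyrate, and 0, 0.387 and 0.126 CPM in control, and was called lower with pentanoate than with butyrate (−2.42, adjusted p = 0.0380, edgeR). Lama3, a laminin chain of epithelial basement membranes, measured 0.207, 0.385 and 0.222 CPM with pentanoate, 0.714, 1.81 and 1.35 CPM with butyrate, and 0.115, 0.110 and 0.505 CPM in control. Both stood at about the same percentage of the butyrate level with pentanoate, 18.4% for Tnxb and 21% for Lama3, and pentanoate was apart from control in Tnxb alone. The last 7 genes are little characterised, and of them 2210011C24Rik measured 0.984, 1.81 and 0.887 CPM with pentanoate, 1.85, 3.32 and 2.09 CPM with butyrate, and 0.404, 0.166 and 0.253 CPM in control, and 1810010H24Rik averaged 0.398 CPM with pentanoate, 1.00 CPM with butyrate and 0.396 CPM in control. Trp53i11, named for its induction by p53, measured 0.881, 1.43 and 1.5 CPM with pentanoate, 1.96, 3.02 and 3.19 CPM with butyrate, and 0.404, 0.663 and 0.126 CPM in control. Its groups did not overlap, with pentanoate between the other groups.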

How the data were processed

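The authors deposited 1 table of raw counts per gene for the 9 libraries, with Ensembl identifiers, symbols and GRCm38 (mm10) coordinates, the build given in the submitters' processing notes. Aligner, counter, strand setting: not given in the sources used here. A further 165 lines are loci with a name of the authors' own and no Ensembl identifier, which held 0.0918% to 0.107% of counts per library and stayed in totals and tests. Levels are CPM, counts scaled to the column total. Sizes of change came from edgeR 4.0.16 (R 4.3.3; filterByExpr, TMM, robust quasi-likelihood fit of all 9 libraries with group as the sole factor, 6 residual degrees of freedom, Benjamini-Hochberg over 14066 genes), with a common biological coefficient of variation of 14.4%. The standard error is the log2 change over the square root of F, and is approximate for few counts. DESeq2 1.42.0 was an alternative. Scripts were tested on simulated data.

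Same-numbered libraries paired: their deviations from group means correlated at 0.201 to 0.414 in all 9 pairs, against −0.332 to 0.0133 in the other 18, so calls that a replicate block changes are named, and counts are given with it where they move by over 1.5 times.

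Members, gene lists and tests were chosen with earlier results of these data known. Values in every library are given for the 12 genes highest with butyrate, the 8 highest with pentanoate, those without control counts and up to 4 per function group, and changes with errors for the 6 of smallest p in each pentanoate comparison. Other values printed were chosen after they were seen. Ratios with few control counts carry exact 95% intervals, which cover counting error only. Promoter sequences are from RefSeq (GRCm38.p6) and transcripts from GENCODE.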

Additional observations from a re-analysis of the deposited data

How the results depend on the processing

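The rule found 92 genes, and 82 with TMM-scaled library sizes, 58 with a control limit of 0.3 CPM, 134 with 0.5 CPM, 161 with a butyrate minimum of 0.75 CPM and 48 with 1.5 CPM. Leaving out 1 butyrate or control library gave 86 to 107. For pentanoate against control, 5 genes were called higher. That number was 20 without the filter on low counts, 3 with a filter at a mean of 1 CPM, 18 with the replicate block, 1 in a fit of those 2 groups alone, 14 by DESeq2 and 0 to 4 with 1 library left out. For pentanoate against butyrate, 26 were called lower. That number was 9 with the stricter filter, where 30 of the genes were tested, 47 with the replicate block, 44 in a fit of the 2 groups alone, 38 without the filter or by DESeq2, and 0 to 45 with 1 library left out. The causes were not tested. With DESeq2 size factors both counts stayed at 5 and 26, with the same genes. The number at 1 CPM or more with pentanoate was 19, and 14 to 20 with 1 pentanoate library left out. The median percentage of the butyrate level was 39.9%, 40.3% with TMM-scaled sizes and 37.7% to 40.1% with 1 library left out. No change of a named gene reversed its direction. Depth limits the low levels: 10 counts equal 0.577 CPM, and a control level rests on at most 21 counts over the group. Gene lists were also counted with the replicate block and without control 3, alternatives chosen after seeing the data. Shares of all genes called under these alternatives are not set beside the list counts, and nothing is read from those counts.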

Other observations

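A further 3 lists that were looked up held no gene of the set. Of 42 keratins, claudins and epithelial junction genes, 33 were under 0.4 CPM in control and 9 were tested. Cldn15, Krt19, Ocln and Cldn9 were called higher with butyrate than in control by edgeR, beside 6.43% of all genes tested. Krt19, an epithelial keratin, averaged 2.77 CPM with pentanoate, 6.32 CPM with butyrate and 1.97 CPM in control, and Ocln, a tight junction protein, 1.52 CPM with pentanoate, 2.74 CPM with butyrate and 0.623 CPM in control. The epithelial markers Epcam and Esrp1 had 0 counts throughout.

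Of 38 germ cell and meiosis genes, 32 were under 0.4 CPM in control and 7 were tested. Brdt, a bromodomain protein of the testis, was called higher with butyrate than in control, beside 6.43% of all genes tested. It averaged 0.337 CPM with pentanoate and 0.0982 CPM in control. With butyrate it averaged 0.931 CPM, just under the 1 CPM that the set required. At such low counts nothing is read from this 1 call. Of 54 ligand-gated channel genes, 14 were tested. Asic1 was called higher and P2rx4 and Grin2d lower with butyrate than in control (5 list genes called with the replicate block). Of all genes tested, 6.43% were called higher and 4.95% lower. Asic1, a proton-gated channel, averaged 8.62 CPM with pentanoate, 14.1 CPM with butyrate and 4.68 CPM in control.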
